A study of Homo sapiens with 12 samples.

Results

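The 10 genes described here encode plasma membrane transporters of amino acids: SLC7A5, SLC3A2, SLC7A8, SLC7A11, SLC7A1, SLC1A5, SLC1A4, SLC1A3, SLC38A1 and SLC38A2. They were taken by gene symbol, with every probe set that the platform annotation gives to exactly 1 of these symbols, from 19775 genes so named on the array. All 10 genes had a probe set, 30 probe sets in all.

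The RNA came from MDA-MB-231, an established human breast cancer cell line without estrogen receptor and with a mesenchymal form. Cells were transfected with YAP/TAZ siRNA #1 (here mix 1), YAP/TAZ siRNA #2 (mix 2) or Control siRNA (control), each at 33 nM on day 2, and harvested on day 4 after new medium on day 3. Every group grew in the same medium, DMEM/F12 with 2 mM glutamine, 17.5 mM glucose and 10% serum, and all 3 groups share the transfection itself. Each group had 4 biological replicates, A to D, which gave 12 arrays of 1 cell line. The series asks which genes respond when YAP (gene YAP1) and TAZ (gene WWTR1), coactivators restrained by the Hippo kinases, are lost.

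Amino acid transporters work as families with shared building plans. SLC3A2, also called CD98 or 4F2 heavy chain, is a glycoprotein that carries no amino acid itself but brings light chains of the SLC7 family to the cell surface; SLC7A5 (LAT1) and SLC7A8 (LAT2) then exchange large neutral amino acids such as leucine, and SLC7A11 (xCT) takes up cystine in exchange for glutamate. SLC7A1 (CAT1) works without a heavy chain and takes up arginine and lysine. The SLC1 family holds sodium-dependent carriers of neutral amino acids (SLC1A5 or ASCT2, SLC1A4 or ASCT1) and of glutamate (SLC1A3 or EAAT1), and SLC38A1 and SLC38A2 (SNAT1 and SNAT2) pump glutamine and other small neutral amino acids in with sodium. In cancer cells SLC7A5, SLC7A11, SLC1A5 and SLC38A2 are studied as routes of leucine, cystine and glutamine supply.

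Values are levels on the log2 scale of RMA, a method that summarises the probes of a probe set, so a difference of 1 log2 is 2-fold. Levels of different probe sets are not on 1 scale and are not set against each other. A gene is given by its probe set with the highest mean, provided that mean lay above 5.46 log2, the 40th percentile of all usable probe sets. All 10 transporters passed, of 13225 genes tested, and 22 of their 30 probe sets passed. The other 8 had means of 3.41 to 5.29 log2 and were not tested. Differences were tested with limma on all 12 arrays, with p-values adjusted by the Benjamini-Hochberg method over all genes, and "rose" or "fell" is used only for an adjusted p below 0.05.

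The arrays were of even quality by their medians, from 5.69 to 5.78 log2. YAP1 averaged 8.15 ± 0.36 log2 with mix 1, 8.09 ± 0.10 with mix 2 and 11.16 ± 0.10 in control (SD, n = 4 each), and WWTR1 averaged 9.06 ± 0.22, 8.95 ± 0.12 and 11.40 ± 0.10. Both knockdowns were therefore measurable in the groups labelled with them. VIM (14.28 log2), CD44 (12.22) and LGALS1 (13.75) were high in control cells, while PGR (3.56) and CDH1 (3.98) lay near background. ESR1 (6.31), the estrogen receptor gene, and ERBB2 (7.76) lay above the filter value. S100A4, also a marker of the line, averaged 14.20 ± 0.03 log2 with mix 1, 13.95 ± 0.04 with mix 2 and 12.54 ± 0.08 in control. SPARC, listed as a marker of the line, was low at 4.33, against the list. Of 14 markers of leukocytes, endothelial cells and fibroblasts, 12 had a probe set, 7 were tested and 4 rose under each mix. Over all genes tested, 34.8% were called higher with mix 1 and 36.7% with mix 2. The 4 markers were PECAM1, COL1A1, PDGFRB and LYZ. LYZ had a control level of 4.96 log2, below the filter value, so that it entered the test only through the knockdown groups. The summed level of the leukocyte list was 9.25 to 9.65 log2 with mix 1, 9.37 to 9.65 with mix 2 and 7.38 to 7.50 in control. That of the endothelial and fibroblast list was 10.22 to 10.46, 9.75 to 9.87 and 8.69 to 8.86 log2. Within the leukocyte list, LYZ alone averaged 9.14 log2 with mix 1, 9.18 with mix 2 and 4.96 in control. Among the 7 tested markers, CD3E, ITGAM and VWF passed with neither mix. Their differences with mix 1 and mix 2 were -0.10 and -0.11, -0.02 and -0.19, and -0.05 and 0.04 log2. The markers PTPRC (3.80, 4.47 and 4.04) and CDH5 (3.92, 3.94 and 3.97 for mix 1, mix 2 and control) lay near background in every group. Also below the filter value and not tested, the fibroblast marker LUM averaged 4.3, 5.4 and 3.2 log2, higher with both mixes than in control. The endothelial marker KDR averaged 4.6, 5.3 and 5.3, lower with mix 1. The part of these markers in the results below was not tested. In RNA from a whole culture, fewer cells of a type and less RNA per cell cannot be told apart.

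The question of the comparison with control is how each transporter responded to loss of YAP and TAZ. With mix 1, 3 of 10 transporters rose and 6 fell, where 34.8% of all genes tested were called higher and 32.3% lower. With mix 2, 0 of the 10 rose by limma and 6 fell, where 36.7% of all genes were called higher and 31.9% lower. At an unadjusted p below 0.05, 1 transporter, SLC38A2, was higher with mix 2. The median difference of the 10 was -0.31 log2 with mix 1 and -0.65 with mix 2, beside medians over all genes of 0.005 and 0.03 log2. None changed at least 2-fold with mix 1, where 16.4% of all genes did so, and 3 fell at least 2-fold with mix 2, where 9.35% of all genes did. These 3 were the exchanger chain SLC7A5, its partner SLC3A2 and the arginine carrier SLC7A1. Both mixes were set against the same 4 control arrays, so the responses to them are given side by side and were compared only through the difference between the mixes themselves.

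**Figure D1:**
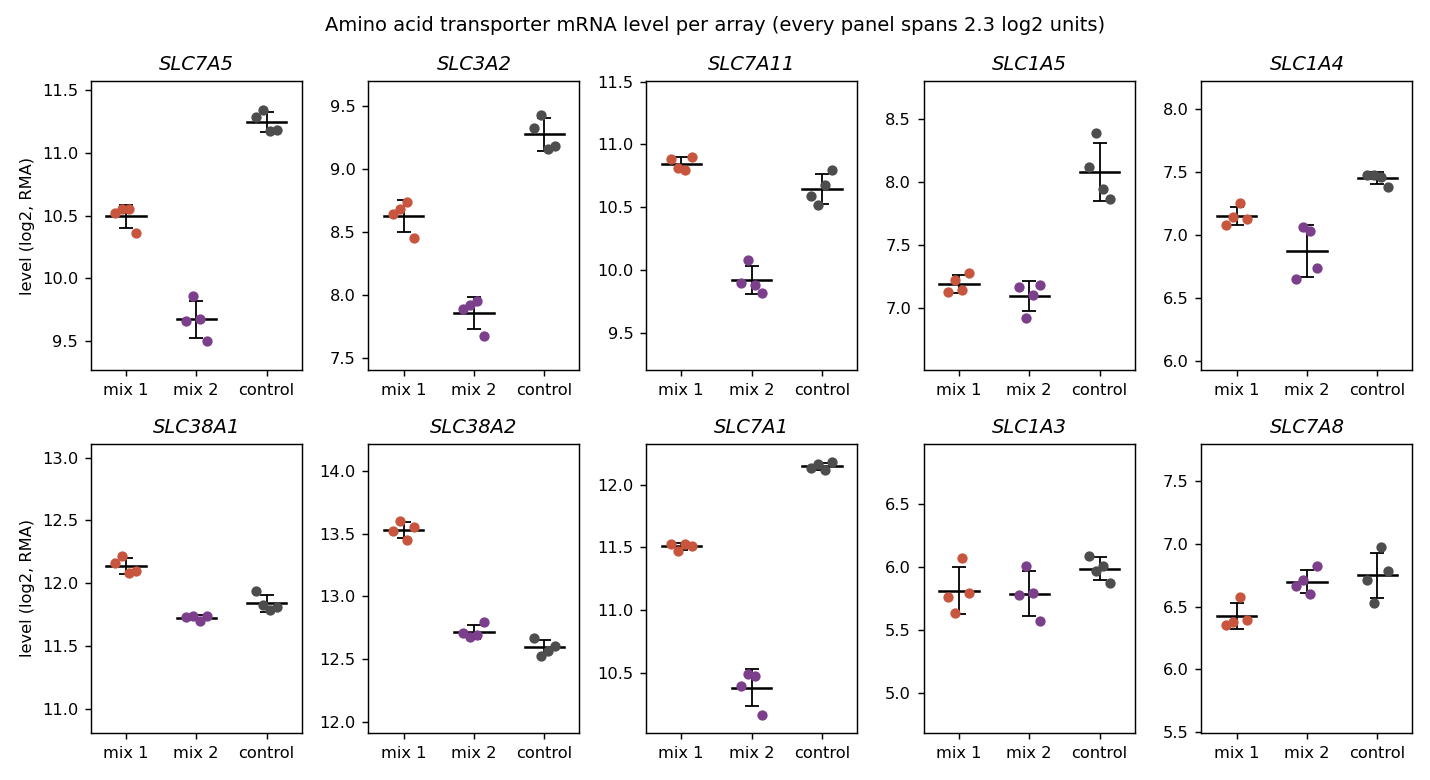
Level of each transporter's brightest probe set (log2, RMA) in the 4 arrays of mix 1, mix 2 and control; points are arrays A to D from left to right, the line is the mean and the bar the SD. SLC7A5, SLC3A2 and SLC7A1 form 3 separate levels, lowest with mix 2; SLC38A2 stands at 13.45 to 13.60 log2 with mix 1 against 12.53 to 12.67 in control; SLC1A5 lies at a similar level with both mixes.

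SLC7A5, the LAT1 light chain that carries leucine, fell with both mixes and fell further with mix 2. It had 10.52, 10.55, 10.55 and 10.36 log2 in the mix 1 arrays (A to D), 9.66, 9.86, 9.68 and 9.50 in the mix 2 arrays and 11.28, 11.34, 11.17 and 11.18 in the control arrays. No array of a group reached the values of another group. The fall was 1.68-fold with mix 1 (log2 difference -0.75, SE 0.08, adjusted p = 6.08e-07) and 2.96-fold with mix 2 (-1.57, SE 0.08, adjusted p = 1.5e-10). Mix 2 was lower than mix 1 by -0.82 log2 (adjusted p = 5.09e-07).

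SLC3A2, the heavy chain that LAT1 needs at the cell surface, moved in almost the same steps. Its levels were 8.64, 8.68, 8.74 and 8.45 log2 with mix 1, 7.89, 7.92, 7.95 and 7.67 with mix 2 and 9.33, 9.43, 9.16 and 9.18 in control. The groups did not overlap, and array D was the lowest of both mixes for SLC3A2 as for SLC7A5. The fall was 1.57-fold with mix 1 (-0.65 log2, SE 0.08, adjusted p = 7.82e-06) and 2.67-fold with mix 2 (-1.42, SE 0.08, adjusted p = 1.33e-09), and the mixes differed by -0.77 log2 (adjusted p = 2.6e-06). SLC7A5 and SLC3A2 each have 1 probe set, and both names end in _s_at, the kind that can bind transcripts of related genes; no other probe set could be set beside them.

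Likeness of profile was measured as the root mean square difference over the 12 arrays of log2 levels taken relative to the control mean, across all genes tested. By that measure the gene most like SLC7A5 was its partner SLC3A2, at 0.118 log2, followed by NOL8 (0.121) and NFATC2IP (0.122). The genes most like SLC3A2 were DCUN1D5 (0.0917), HBEGF (0.0943) and LONRF3 (0.0978). The distances of the first 3 genes differ by less than the SD between replicates, so their order is not established.

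SLC7A8, the LAT2 light chain, shares SLC3A2 and much of its substrate range with LAT1 but did not follow it. It had 6.35, 6.38, 6.58 and 6.39 log2 with mix 1, 6.66, 6.71, 6.60 and 6.82 with mix 2 and 6.71, 6.53, 6.97 and 6.78 in control, a dim signal. The highest mix 1 array lay above the lowest control array, and mix 2 lay wholly above mix 1 and within the control range. SLC7A8 fell by 0.32 on the log2 scale with mix 1 (SE 0.09, adjusted p = 0.00451), while the difference with mix 2 was -0.05 (95% interval -0.24 to 0.14, adjusted p = 0.64). It was the only transporter of the 10 that was higher with mix 2 than with mix 1 past the threshold (0.27 log2, adjusted p = 0.0168). The 2 tested probe sets of SLC7A8 are both of the kind that can bind related transcripts (_x_at or _s_at). The second tested probe set of SLC7A8 did not pass in any comparison (-0.13 log2 with mix 1, adjusted p = 0.444, from the fit over all 24650 probe sets past the filter), and averaged over its 2 tested probe sets the mix 1 fall was not past the threshold (-0.23, adjusted p = 0.0702).

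SLC7A11, the xCT light chain that imports cystine for glutathione, went opposite ways with the mixes by its 2 bright probe sets. The brightest had 10.88, 10.81, 10.80 and 10.90 log2 with mix 1, 9.90, 10.08, 9.88 and 9.82 with mix 2 and 10.59, 10.52, 10.68 and 10.80 in control. Mix 2 lay below every other array, and mix 1 touched the control range at 10.80. It fell 1.66-fold with mix 2 (-0.73 log2, SE 0.07, adjusted p = 3.55e-07). With mix 1 it rose by 0.20 log2 (SE 0.07, adjusted p = 0.0234), a call that was lost without control replicate A (adjusted p = 0.0641) or B (0.0817), without mix 1 replicate A (0.0538) or D (0.0585), and with the mean of its 3 probe sets (0.0017 log2, adjusted p = 0.985).

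The second bright SLC7A11 probe set rose by 0.39 log2 with mix 1 (adjusted p = 0.00123) without overlap with control. It was at -0.80 with mix 2 (adjusted p = 1.32e-06). The third, of the _s_at kind and dim at a mean of 6.15 log2, fell with both mixes (-0.59, adjusted p = 0.000407, and -0.46, adjusted p = 0.00252). The direction of SLC7A11 with mix 1 thus depended on the probe set, and its fall with mix 2 did not. The difference between the mixes was -0.93 log2 in the brightest (adjusted p = 6.9e-08), -1.19 in the second (adjusted p = 5.04e-08) and 0.12 in the third (adjusted p = 0.405).

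SLC7A1, the CAT1 carrier of arginine and lysine, had the largest fall of the 10 with mix 2. Its levels were 11.53, 11.47, 11.53 and 11.51 log2 with mix 1, 10.40, 10.49, 10.48 and 10.17 with mix 2 and 12.13, 12.16, 12.12 and 12.18 in control. The 3 groups stood wide apart, with no overlap. The fall was 1.56-fold with mix 1 (-0.64 log2, SE 0.07, adjusted p = 7.81e-07) and 3.39-fold with mix 2 (-1.76, SE 0.07, adjusted p = 1.01e-11), and mix 2 was lower than mix 1 by -1.12 log2 (adjusted p = 4.68e-09), 2.18-fold. Its 3 tested probe sets all fell with mix 2 (-1.76, -1.63 and -0.51 log2), and 2 of 3 fell with mix 1; the third was at -0.23 (adjusted p = 0.0686). Most like SLC7A1 in profile were ASNSD1 (0.0963 log2), FAM199X (0.11) and MPC1 (0.118).

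SLC1A5, the ASCT2 exchanger that brings in glutamine, fell by about the same amount with each mix. It had 7.13, 7.22, 7.14 and 7.28 log2 with mix 1, 7.17, 6.92, 7.10 and 7.18 with mix 2 and 8.12, 8.39, 7.95 and 7.87 in control. All 8 knockdown arrays lay below the 4 control arrays, and the mixes overlapped. The fall was 1.85-fold with mix 1 (-0.89 log2, SE 0.10, adjusted p = 1.41e-06) and 1.99-fold with mix 2 (-0.99, SE 0.10, adjusted p = 4.13e-07). The mixes differed by -0.10 log2, with a 95% interval of -0.31 to 0.11 (adjusted p = 0.427), so a difference of up to that size was not detectable here.

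SLC1A4, the ASCT1 exchanger of alanine, serine and cysteine, fell less. It had 7.08, 7.14, 7.25 and 7.13 log2 with mix 1, 6.65, 7.06, 7.03 and 6.74 with mix 2 and 7.48, 7.48, 7.46 and 7.38 in control. The mixes lay wholly below control, and mix 2 lay wholly below mix 1, narrowly at the nearest arrays. SLC1A4 fell by 0.30 on the log2 scale with mix 1 (SE 0.09, adjusted p = 0.00629) and by 0.58 with mix 2 (SE 0.09, adjusted p = 2.48e-05), and mix 2 was lower than mix 1 by -0.28 (adjusted p = 0.0128). Of its 4 tested probe sets 3 fell with each mix, to as much as -1.14 log2 with mix 2 in 1 of them (adjusted p = 9.7e-07), and the dimmest was at -0.06 and -0.13 (adjusted p = 0.676 and 0.315). All 4 are named _x_at or _s_at, the kind that can bind related transcripts.

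SLC1A3, the EAAT1 carrier of glutamate and aspartate, was dim and passed in neither comparison. It had 5.76, 5.63, 6.07 and 5.79 log2 with mix 1, 5.78, 6.01, 5.79 and 5.57 with mix 2 and 6.09, 5.97, 6.01 and 5.87 in control. The groups overlapped throughout. The differences were -0.17 log2 with mix 1 (95% interval -0.39 to 0.04, adjusted p = 0.147) and -0.20 with mix 2 (-0.41 to 0.02, adjusted p = 0.0967). Without mix 1 replicate C the mix 1 difference passed (-0.26, adjusted p = 0.0243), and without mix 2 replicate B the mix 2 difference passed (-0.27, adjusted p = 0.0266).

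The pair of SLC38 genes rose with mix 1. They lie next to each other on chromosome 12, with 0 protein-coding genes between them in the RefSeq annotation. SLC38A2, the SNAT2 carrier that cells are known to induce when amino acids run short, had 13.52, 13.60, 13.45 and 13.55 log2 with mix 1, 12.71, 12.68, 12.69 and 12.80 with mix 2 and 12.67, 12.53, 12.57 and 12.61 in control. Mix 1 stood far above the rest, and mix 2 began just above the highest control array. SLC38A2 rose 1.91-fold with mix 1 (0.94 log2, SE 0.06, adjusted p = 1.41e-09). With mix 2 the difference was 0.12 log2 (SE 0.06, adjusted p = 0.0593), not past the threshold in the brightest probe set. The other 2 probe sets rose by 0.28 and 0.31 log2 with mix 2 (adjusted p = 0.000638 and 0.000179), and the mean of the 3 passed as well (0.24, adjusted p = 0.00062). All 3 probe sets gave a level 0.80 to 0.81 log2 lower with mix 2 than with mix 1, in the brightest at -0.81 (adjusted p = 1.95e-08). All 3 are named _x_at or _s_at, the kind that can bind related transcripts, so no probe set of another kind could be set beside them.

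SLC38A1, the SNAT1 carrier of glutamine, changed less. It had 12.16, 12.22, 12.08 and 12.10 log2 with mix 1, 11.73, 11.74, 11.70 and 11.74 with mix 2 and 11.94, 11.83, 11.79 and 11.81 in control. The 3 groups did not overlap, with mix 1 highest and mix 2 lowest. SLC38A1 rose by 0.30 log2 with mix 1 (SE 0.05, adjusted p = 0.00018), a call lost with the mean of its 3 tested probe sets (0.19, adjusted p = 0.059), while the difference with mix 2 was -0.12 (95% interval -0.23 to 0.001, adjusted p = 0.0727). Its second probe set rose with mix 1 (0.19, adjusted p = 0.00696) and fell with mix 2 (-0.18, adjusted p = 0.0103). The dimmest tested one passed in no comparison (0.07 with mix 1, -0.20 with mix 2). Between the mixes the brightest differed by -0.41 log2 (adjusted p = 1.4e-05).

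**Figure D2:**
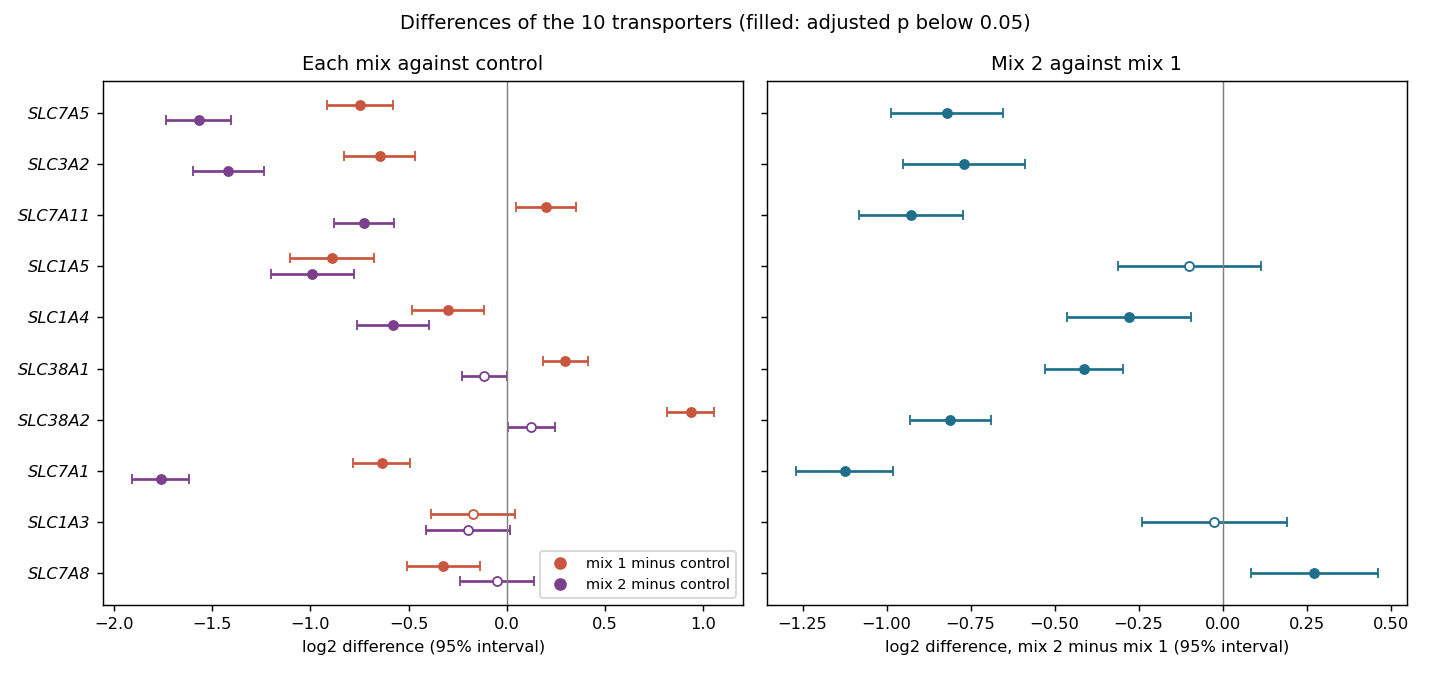
Log2 differences of the 10 transporters with 95% intervals from the fit on 12 arrays, at left mix 1 and mix 2 against control and at right mix 2 minus mix 1; filled points have an adjusted p below 0.05. At right, 7 transporters lie below 0, SLC7A8 above it at 0.27, and the intervals of SLC1A5 and SLC1A3 include 0.

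Set against each other directly, the mixes gave different transporter levels. Of 10 transporters 7 were lower with mix 2 than with mix 1 and 1 was higher, where 25.0% of all genes were called lower and 28.7% higher in that comparison. SLC7A1 alone was lower by at least 2-fold, where 3.61% of all genes were. The median of the 10 was -0.59 log2, beside 0.03 over all genes. The differences of SLC7A5, SLC3A2, SLC7A11 and SLC38A2 lay between -0.93 and -0.77 log2, that of SLC7A1 was larger at -1.12, and those of SLC38A1 and SLC1A4 were -0.41 and -0.28. Both target mRNAs were down to similar levels, with differences between the mixes of -0.06 log2 in YAP1 (0.73 as the adjusted p) and -0.12 in WWTR1 (0.344).

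Over the 22 tested probe sets of the transporters, 7 rose and 10 fell with mix 1, where 33.2% of all probe sets tested were called higher and 31.7% lower. With mix 2, 2 rose and 13 fell, where 34.0% and 32.2% of all were called so. Mix 2 was lower than mix 1 in 15 of 22 and higher in 1, where 25.6% and 25.8% of all were called so. SLC7A11 with mix 1 was the only case in which probe sets of 1 transporter passed in opposite directions.

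**Figure D3:**
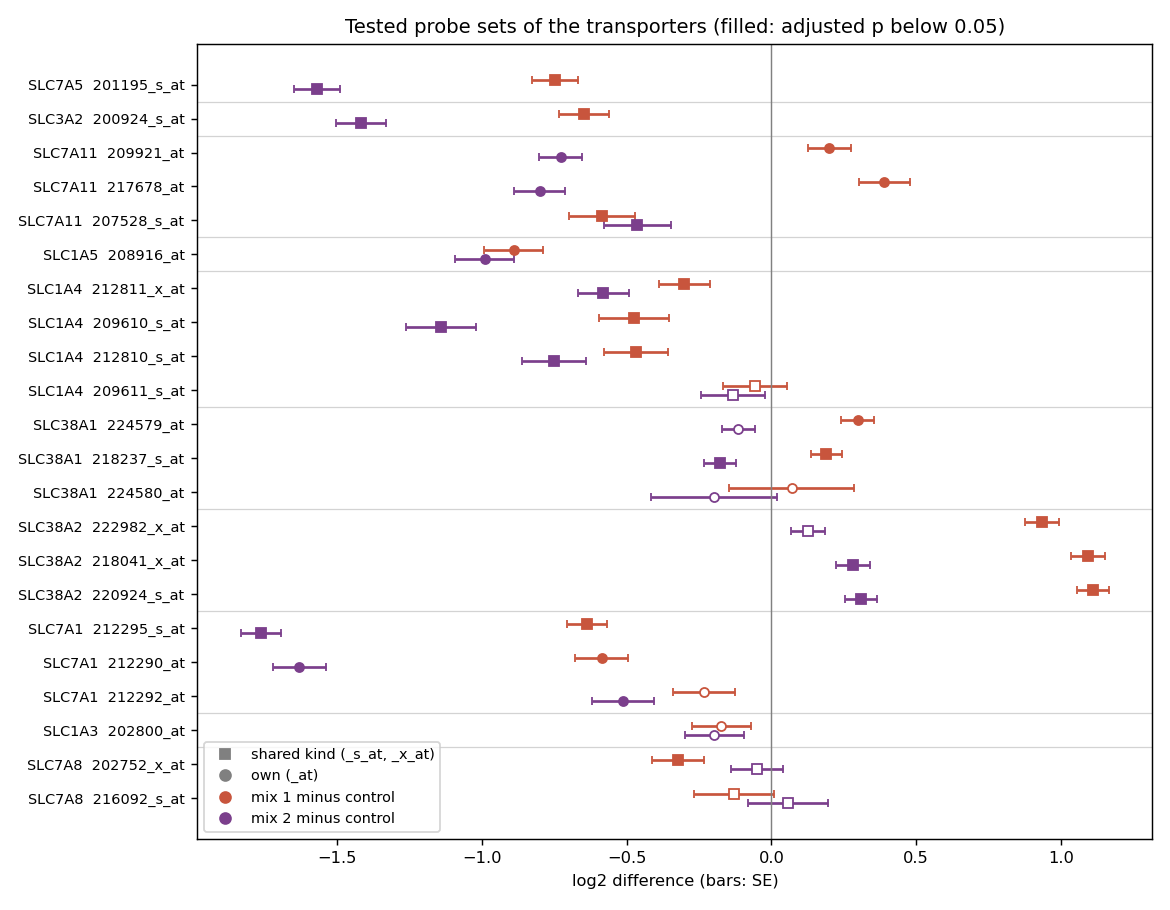
Log2 differences (points) with SE (bars) for the 22 tested probe sets, mix 1 and mix 2 against control; squares are probe sets named _s_at or _x_at, circles the others, and filled points have an adjusted p below 0.05. The 3 SLC38A2 probe sets lie at 0.94 to 1.11 with mix 1, and the third SLC7A11 probe set lies at -0.59 where the other two lie above 0.

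The start regions of the transporters were read for 3 short motifs, as a description only. In windows of 250 bases before to 50 after each annotated start (RefSeq, GRCh38.p14), both strands were searched for TGATGNAA, the core of the element through which ATF4 and C/EBP factors act in amino acid shortage, for CACGTG, the E-box that MYC binds, and for GGAATG, a core bound by TEAD factors. The table held 20 windows of 9 of the transporters, some of which overlap; SLC7A11 was not analysed here. TGATGNAA was found in 6 of the 20 windows, in 6 genes, and in 3.62% of all 35116 windows. CACGTG was found in 3 of 20 windows and in 7.26% of all, and GGAATG in 2 of 20 and in 14.0% of all. No matches of different motifs overlapped in these windows.

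The stretches with TGATGNAA are shown because they belong to transporters that fell with both mixes (SLC3A2, SLC1A5, SLC1A4, SLC7A1), to 1 that rose with mix 1 (SLC38A1) and to 1 that passed in neither (SLC1A3). Of the E-boxes, that of SLC7A5 is shown as an example. Capitals mark the motif, read on the strand of the gene; SLC3A2 and SLC1A4 carry it in the opposite orientation.
SLC3A2 (chr11:62881725-62881748, + strand): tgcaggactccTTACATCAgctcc
SLC1A5 (chr19:46784893-46784922, - strand): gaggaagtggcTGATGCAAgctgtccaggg
SLC1A4 (chr2:64989381-64989410, + strand): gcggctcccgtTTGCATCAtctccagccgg
SLC7A1 (chr13:29595663-29595692, - strand): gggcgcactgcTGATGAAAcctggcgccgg
SLC38A1 (chr12:46266502-46266531, - strand): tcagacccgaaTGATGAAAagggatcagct
SLC1A3 (chr5:36596357-36596386, + strand): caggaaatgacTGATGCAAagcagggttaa
SLC7A5 (chr16:87869621-87869648, - strand): gccggacgacgCACGTGctccgagctgg
The match of SLC7A1 begins at base 8 of the transcript and that of SLC3A2 at base 38, those of SLC1A4 and SLC38A1 begin 7 and 4 bases before a start and run across it, and those of SLC1A5 and SLC1A3 begin 97 and 220 bases before a start. SLC1A5 has 3 windows and its match is in 1 of them. E-boxes begin 130 bases before a start of SLC7A5, 50 before one of SLC1A5 and 129 before one of SLC7A8, which did not pass with mix 2. TEAD cores begin 8 bases before a start of SLC1A5 and 76 before one of SLC1A3. SLC38A2, which rose most with mix 1, had none of the 3 motifs in its window. Bases outside the windows were not searched, so a motif elsewhere in a gene would be missed. A match of letters does not show that a factor binds.

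MYC, a transcription factor known to raise several of these transporters, averaged 9.94 ± 0.13 log2 with mix 1, 10.28 ± 0.13 with mix 2 and 11.21 ± 0.06 in control (SD, n = 4 each). It fell by 1.27 on the log2 scale with mix 1 (adjusted p = 1.75e-09) and by 0.94 with mix 2 (adjusted p = 4.82e-08), and was higher with mix 2 than with mix 1 (0.34, adjusted p = 0.00186). ATF4, the main factor of the amino acid response, averaged 12.28 ± 0.07 log2 with mix 1, 11.79 ± 0.08 with mix 2 and 12.40 ± 0.02 in control. Its mRNA fell with mix 2 (-0.60, adjusted p = 1.94e-07), while the mix 1 difference was -0.12 (adjusted p = 0.0866, past the threshold in 4 alternatives with adjusted p of 0.028 to 0.0426). ATF4 was lower with mix 2 than with mix 1 by -0.49 log2 (adjusted p = 4.15e-06). ATF4 is regulated mainly in its translation, which an mRNA level does not read.

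The other genes of amino acid transport went both ways. Of 42 further transporters listed, 39 had a probe set and 25 were tested; with mix 1, 12 rose and 7 fell (median 0.08 log2), and with mix 2, 12 rose and 6 fell (median 0.06). Over all genes, 34.8% were called higher and 32.3% lower with mix 1, and 36.7% and 31.9% with mix 2. The count of falls lay near that share and the count of rises above it. Both counts of rises include SLC7A7 and SLC7A9, named after their values were seen. Their control levels (5.24 log2 each) lay below the filter value, so they entered the test only through the knockdown groups. SLC7A2, the second arginine carrier of the CAT family, averaged 6.24 ± 0.15 log2 with mix 1, 6.42 ± 0.13 with mix 2 and 8.46 ± 0.07 in control, and fell by 2.23 on the log2 scale with mix 1 (adjusted p = 1.12e-11) and by 2.04 with mix 2 (adjusted p = 1.86e-11). SLC36A4, a carrier of proline and tryptophan, fell too, with differences of -1.50 log2 with mix 1 and -2.65 with mix 2. SLC38A10 (1.15 and 1.09), the glutamate carrier SLC1A7 (0.76 and 1.13) and the taurine carrier SLC6A6 (1.11 and 0.70) rose with mix 1 and mix 2.

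The further light chains of SLC3A2 differed among themselves. SLC7A6, which exchanges arginine for glutamine, fell by 0.29 on the log2 scale with mix 1 (adjusted p = 0.00161) and by 0.98 with mix 2 (adjusted p = 8.66e-09), and was lower with mix 2 by -0.69 (adjusted p = 1.09e-06). SLC7A7, a light chain with the same substrates, chosen after its values were seen, averaged 6.06 ± 0.21 log2 with mix 1, 6.16 ± 0.16 with mix 2 and 5.24 ± 0.16 in control. Its control level lies below the filter value, so it entered the test only through the knockdown groups, and its levels are given without a p-value. SLC7A10, also a partner of SLC3A2 and also chosen after its values were seen, lay near background (4.18, 4.05 and 4.08 log2 for mix 1, mix 2 and control) and was not tested. Of the other transporters, 3 passed in opposite directions with the mixes, all chosen after their values were seen. The heavy chain SLC3A1, whose mix 1 level of 4.96 log2 lay below the filter value, was at -0.68 log2 with mix 1 and 0.70 with mix 2, the neutral amino acid carrier SLC43A1 at -0.67 and 0.47, and the lysosomal carrier SLC36A1 at 0.29 and -0.53; the differences between the mixes were 1.38, 1.13 and -0.82 log2 (adjusted p = 1.47e-07, 2.44e-07 and 1.92e-07).

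**Figure D4:**
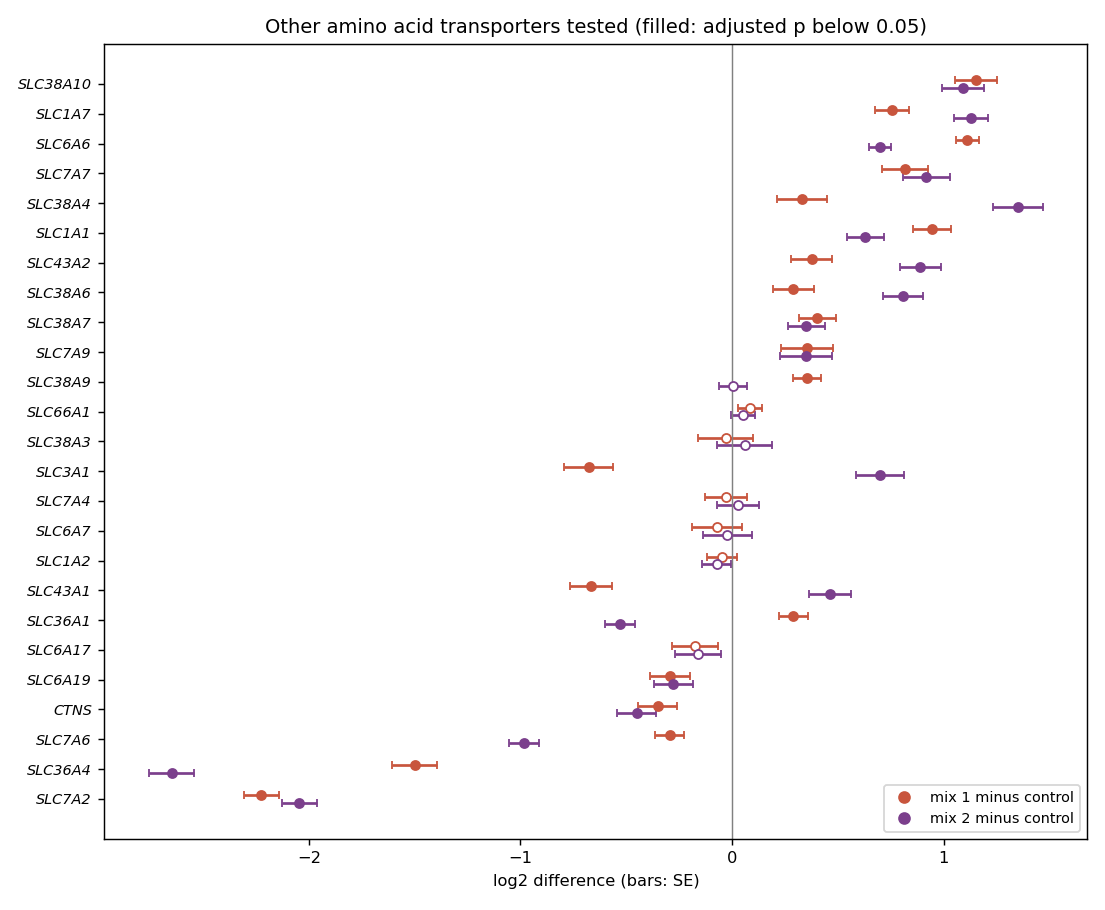
Log2 differences (points) with SE (bars) for the 25 other amino acid transporters tested, mix 1 and mix 2 against control, ordered by the mean of both; filled points have an adjusted p below 0.05. SLC7A2 and SLC36A4 lie lowest and SLC38A10 highest.

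Genes of the amino acid response, 17 of 18 tested, split with mix 1 (8 rose, 6 fell, median 0.10 log2) and mostly fell with mix 2 (6 rose, 10 fell, median -0.44). Over all genes, 34.8% were called higher and 32.3% lower with mix 1, and 36.7% and 31.9% with mix 2. Without shared probe sets 4 response genes rose with mix 1 and 2 with mix 2, in a setting that tested 10357 genes in all in place of 13225. ASNS, which makes asparagine and is a standard ATF4 target, averaged 9.66 ± 0.03 log2 with mix 1, 9.49 ± 0.17 with mix 2 and 10.47 ± 0.09 in control. It fell by 0.81 with mix 1 and by 0.98 with mix 2 (adjusted p = 3.09e-07 and 3.43e-08). The tRNA exporter XPOT (-0.99 and -0.59) and CEBPG (-0.73 and -0.82), a dimer partner of ATF4, fell too. DDIT4 (1.72 and 1.45), an inhibitor of mTORC1, VLDLR (1.63 and 0.26) and SESN2 (0.35 and 0.65), a leucine sensor, rose.

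Enzymes that use the transported amino acids mostly fell with mix 1 (3 rose and 13 fell of 21 tested, median -0.36 log2) and were more evenly split with mix 2 (5 rose, 9 fell, median -0.16). The shares over all genes were 34.8% higher and 32.3% lower with mix 1, and 36.7% and 31.9% with mix 2. SHMT2, which splits serine in mitochondria, averaged 9.58 ± 0.09 log2 with mix 1, 10.11 ± 0.12 with mix 2 and 11.44 ± 0.10 in control. It fell by 1.86 with mix 1 and by 1.33 with mix 2 (adjusted p = 1.96e-11 and 5.71e-10). ODC1, which turns ornithine into putrescine, was at -1.65 and -1.51, and the serine synthesis enzyme PSAT1 at -1.27 and -0.91. PSPH, the last enzyme of serine synthesis (0.77 and 0.55), the glutamine synthetase gene GLUL (0.54 and 0.27) and the glutamate dehydrogenase gene GLUD1 (0.34 and 0.39) rose. The count of 3 rises with mix 1 was 5 without mix 2 replicate D or with quantile normalization, and 0 without shared probe sets, which also left 1 rise with mix 2. The enzymes were higher with mix 2 than with mix 1 in 11 of 21 cases and lower in 4, where 28.7% of all genes were called higher and 25.0% lower. Without shared probe sets these counts were 7 and 2, in a setting that tested 10357 genes in all in place of 13225. Among the other transporters, the response genes and the enzymes, several named genes are read by probe sets of the _s_at kind. They are SLC7A6, SLC7A7, SLC7A9, SLC3A1, SESN2, DDIT4, VLDLR, ASNS, PSPH, GLUL, GLUD1, SHMT2 and PSAT1. GLUD1 has a near-identical copy gene, GLUD2, that could add to its signal.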

How the data were processed

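The authors deposited 1 table of log2 values for 54675 probe sets on 12 Affymetrix arrays, summarised by RMA according to the submitters' processing notes. The version and options of RMA are not stated in the labels or file header. Biotin-labelled cRNA was prepared with a 3' kit, per the labels' protocols. RMA usually sets all arrays to 1 distribution, so a shift of all genes would not be visible. The annotation gave 1 symbol to 41097 probe sets, several to 1801 and none listed here to 11777. Without 6 control probe sets, 41091 were used; 41037 symbols were updated by gene ID (RefSeq, GRCh38.p14), and 54 kept the older one. No genome build is named, so no gene coordinates are given beside those of the RefSeq windows.

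Differences were tested with limma 3.58.1 (R 4.3.3), as a model with a mean for each of the 3 groups, 9 residual degrees of freedom, default eBayes, two-sided p-values, Benjamini-Hochberg over all genes (or all probe sets), threshold 0.05. The fit was tested on simulated data. Errors of differences are SE and those of means SD. The number of arrays limits the precision. Replicates were plated and harvested separately but in parallel, per the series text.

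The members and lists were chosen with earlier results of these data known. The named genes are the 10 members, YAP1, WWTR1, MYC and ATF4; of each other list, up to 3 genes per direction that passed with both mixes, by the mean of their differences; and, for members past the threshold with both mixes and at least 2-fold with either, the 3 genes nearest in profile. Marker genes of the cell line and of other cell types are given as levels to check the label. Others are named as chosen after their values were seen.

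Replicate letters occur in all groups. Deviations of same-letter arrays from their group means correlated at 0.37, 0.251, 0.409 and 0.34 (A to D) between mix 1 and control, all above 0.1, so the letters may pair these arrays; the sign of this is in the values, and the labels do not state it. Between mix 2 and control they were 0.119, 0.0338, 0.0481 and 0.212, and between the mixes 0.273, -0.0853, 0.202 and 0.191. Alternatives were another filter or none, other choices of probe set, 2 scalings, a fit of 2 groups only, the replicate block, a trend and robust variance model, and each array left out in turn.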

Additional observations from a re-analysis of the deposited data

Results flagged for a closer look

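SLC7A11 passed in opposite directions with the mixes, and the difference between them was tested: mix 2 minus mix 1 was -0.93 log2 (limma adjusted p = 6.9e-08), with means of 9.92 ± 0.11 log2 with mix 2 and 10.85 ± 0.05 with mix 1 (SD, n = 4 each). Single arrays stood apart from the other 3 of their group in 2 of 66 groups of 4 examined, and chance alone puts about 1 group in 20 there. For SLC7A5 the mix 1 array D was at 10.36 log2, with the others at 10.52 to 10.55. For the second probe set of SLC7A1 the mix 2 array A was at 7.31 log2, with the others at 7.15 to 7.17. SLC7A5 fell without that array too, with differences of -0.78 to -0.70 log2 over the alternatives.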

How the results depend on the processing

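Of the 30 results on single transporters (10 genes in 3 comparisons), 22 kept their side of the threshold under every alternative that tested them, up to 21 each, and 20 of these also kept their sign. The sign changed for SLC7A8 with mix 2 (-0.12 to 0.02 log2) and for SLC1A3 between the mixes (-0.10 to 0.06), neither past the threshold in any alternative; none that passed was reversed. SLC7A5, SLC3A2, SLC1A5, SLC1A4 and SLC7A1 kept their falls with both mixes throughout. With the tested probe sets averaged per gene, 1 transporter rose with mix 1 in place of 3. Without shared probe sets (names in _s_at or _x_at) only SLC7A11, SLC1A5, SLC38A1, SLC7A1 and SLC1A3 could be tested: 2 fell with mix 1, 3 with mix 2 and 3 were lower with mix 2 than with mix 1. SLC38A2 was counted as 1 rise with mix 2, in place of 0, with the filter at the 60th percentile (adjusted p = 0.0404), the mean of its probe sets, quantile normalization (0.0218), the trend model (0.00910) and without control replicate A (0.0441) or mix 1 replicate C (0.0497); leaving out single arrays gave 0 to 1. SLC38A1 passed as lower with mix 2 with the 60th percentile filter (0.05) and the trend model (0.025), and SLC1A3 with quantile normalization (0.0459). The rise of SLC7A8 with mix 2 over mix 1 was not past the threshold with the mean of probe sets (adjusted p = 0.0796). Without shared probe sets or with the 60th percentile filter SLC7A8 was not tested, so these settings do not bear on its rise. The count of transporter probe sets higher with mix 2 was 0 with that filter and 0 to 1 with single arrays left out. The replicate block changed no transporter's call: 3 rose and 6 fell with mix 1, and 13 probe sets were lower with mix 2 than with mix 1 in place of 15. The cause of these changes was not tested, beyond the fewer genes that some settings test. Dim signals (SLC1A3, SLC7A8) limit what could be seen.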

Other observations

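Genes through which mTORC1, the growth kinase that reads amino acid supply, is controlled were measured as well, and 24 of 26 listed genes were tested. With mix 1, 12 rose and 5 fell (median 0.20 log2), and with mix 2, 13 rose and 7 fell (median 0.24), beside medians over all genes of 0.005 and 0.03 log2. Of all genes, 34.8% were called higher and 32.3% lower with mix 1, and 36.7% and 31.9% with mix 2. SESN3 (1.03 with mix 1 and 1.34 with mix 2), a restraint on the kinase, CASTOR2 (1.12 and 1.19), of the arginine sensor family, and the GTPase RRAGB (0.89 and 1.10) rose. The activating GTPase RHEB fell by 0.51 on the log2 scale with mix 1 (limma adjusted p = 2.26e-06) and by 1.03 with mix 2 (adjusted p = 8.88e-10), and RRAGD (-0.84 and -0.41) and NPRL2 (-0.58 and -0.57) fell. RHEB, RRAGB, RRAGD and NPRL2 are read by probe sets of the kind that can bind related transcripts. Without such probe sets, 6 of the genes rose and 2 fell with mix 1, and 7 rose and 4 fell with mix 2. That setting tested 10357 genes in all in place of 13225, and how many of the listed genes it kept is not given.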
